A study of Mus musculus with 26 samples.

Results

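The 10 genes described here encode antimicrobial peptides and acute-phase proteins: the β-defensins *Defb3*, *Defb4* and *Defb14*, the serum amyloid A proteins *Saa1*, *Saa2* and *Saa3*, lipocalin 2 (*Lcn2*), antileukoproteinase (*Slpi*), cathelicidin (*Camp*) and peptidoglycan recognition protein 1 (*Pglyrp1*). They were selected by their symbols, as 10 of the 56738 gene symbols in the deposited count table, and 9 of the 10 passed the filter on expression and were among the 16893 genes tested. *Camp* did not pass, and *Saa2* passed narrowly, with a mean normalized count of 10.5 over all libraries against a minimum of 10.

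RNA was sequenced in bulk from cultured epidermal keratinocytes of 2-day-old C57BL/6NJ mice, 5 of them wild-type (WT) and 8 *Pla2g4d*-deficient (KO). KO mice carry a homozygous germline deletion made with CRISPR-Cas9, which includes exon 3 of *Pla2g4d*, a cytosolic phospholipase A2, and is present in all their cells. The cells of each mouse were cultured for 4 days with 0.06 mM CaCl2 and then kept without cytokines (basal) or treated for 24 h with both IL17A and TNFα, at 20 ng/ml of either, which gave 26 libraries from 13 mice. The groups were therefore WT basal and WT with cytokines (n = 5 each), and KO basal and KO with cytokines (n = 8 each). Wells of the same animal were pooled before RNA isolation. The paper describes a homozygous breeding regime for the KO line, under which KO and WT pups come from different litters. Differences between genotypes can then not be told apart from differences between litters.

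Antimicrobial peptides and acute-phase proteins form a chemical barrier that epithelia raise on contact with microbes or inflammatory cytokines. β-Defensins and cathelicidin damage microbial membranes, lipocalin 2 withholds iron by binding bacterial siderophores, peptidoglycan recognition protein 1 binds bacterial cell walls, and antileukoproteinase inhibits serine proteases of neutrophils. Serum amyloid A proteins are lipid-binding proteins of the acute phase, and IL17A acting together with TNFα is a known inducer of many of these genes in keratinocytes and in psoriatic skin.

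Total counts per library lay between 42072745 and 78102858, and values below are counts per 1000000 counts (CPM) after TMM normalization. The keratinocyte markers (*Krt5*, *Krt14*, *Trp63*, *Col17a1*, *Krt1*, *Krt10*) summed to between 31672 and 46240 CPM in every library. Of the 11 neutrophil markers, *Csf3r*, *Retnlg* and *Ctsg* were at 0 in all 26 libraries, and the whole list summed to between 0.936 and 2.42 CPM. Macrophage and Langerhans cell markers summed to between 18.2 and 25.1 CPM in WT basal cells and between 28.8 and 41.5 CPM in WT cells with cytokines, most of it *Cd68*, while *Cd207* was at 0 throughout. In KO cells this list reached 17.5 to 25.5 CPM without and 20.5 to 42.9 CPM with cytokines. T cell and adipocyte markers did not exceed 0.483 and 0.415 CPM in any library, and fibroblast markers summed to between 1.69 and 7.43 CPM. The endothelial markers *Pecam1*, *Kdr* and *Cdh5* summed to more with treatment, going from between 1.04 and 2.87 to between 3.22 and 5.25 CPM in WT and from between 1.79 and 4.45 to between 4.50 and 5.86 CPM in KO cells. Melanocyte markers summed to between 409 and 584 CPM in basal and between 315 and 458 CPM in treated WT cells, and to between 445 and 604 CPM in basal and between 291 and 386 CPM in treated KO cells. *Krt1*, a keratin of the suprabasal layers, fell from 1522 ± 350 to 75 ± 19.1 CPM (SD, n = 5) in WT and from 903 ± 239 to 28.0 ± 8.60 CPM (SD, n = 8) in KO cells with cytokines. The part of these shifts in the results below was not tested, and in bulk RNA fewer cells of a type and less RNA per cell cannot be told apart. *Pla2g4d* itself had 3.35 ± 1.36 CPM in WT and 2.06 ± 0.716 CPM in KO basal cells, and these gene-level counts include exons outside the deletion.

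All 9 tested members rose with IL17A and TNFα in WT cells and all 9 in KO cells. A gene was called changed at a Benjamini-Hochberg adjusted p under 0.1 (quasi-likelihood test of edgeR) together with a fold change over 1.5, and SE is the standard error of a log2 value. By this rule 8.65% of all genes tested rose and 5.26% fell in WT cells, and 6.33% rose and 4.55% fell in KO cells. The median log2 fold change of the 9 members was 3.91 in WT and 3.97 in KO cells, against 0.01 and 0.00 over all genes tested. *Defb3*, *Saa2* and *Pglyrp1* had at most 16, 8 and 16 counts in any basal library. They therefore passed the filter through their treated libraries and could only differ upwards, so the counts and medians are a description. In each of the 13 mice, each of the 9 members was higher in the treated than in the basal culture.

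**Figure D1:**
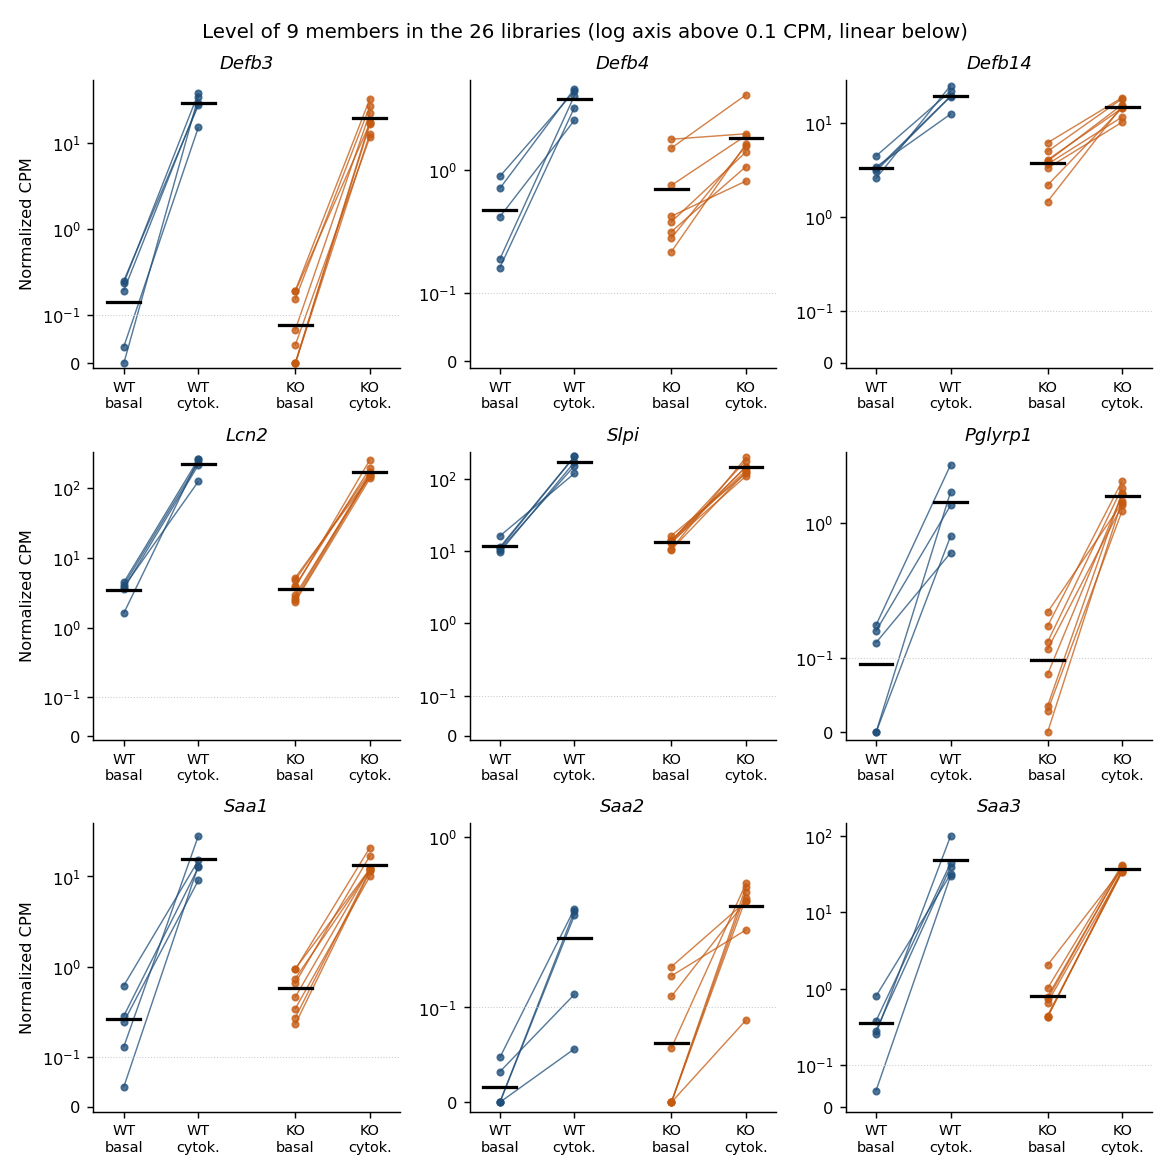
Normalized CPM of the 9 tested members (1 panel each, y axis logarithmic above 0.1 CPM and linear below), with a line joining the basal and the cytokine-treated library of each mouse (blue: 5 WT mice, orange: 8 KO mice) and black bars at the group means. All lines rise, and the treated libraries stand above the basal ones in every panel except those of *Defb4* and *Saa2* in KO cells, where the ranges overlap.

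The β-defensins showed the widest range of responses among the members. All 3 genes lie on the plus strand of chromosome 8 of GRCm39, *Defb14* at chr8:19244373-19245228, *Defb4* at chr8:19248722-19251561 and *Defb3* at chr8:19343376-19345350, each with 2 exons. The mature peptide is encoded in the last coding exon, which is shown for the 3 genes because their identity differs and their responses do too. The coding parts span chr8:19345104-19345234 in *Defb3*, chr8:19251193-19251323 in *Defb4* and chr8:19245083-19245225 in *Defb14*. They are printed 5′ to 3′ on the coding strand from GRCm39, and capitals mark the 6 cysteine codons that β-defensins share.
Defb3: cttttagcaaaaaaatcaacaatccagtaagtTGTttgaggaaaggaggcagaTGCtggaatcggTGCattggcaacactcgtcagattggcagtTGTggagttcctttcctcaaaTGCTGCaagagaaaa
Defb4: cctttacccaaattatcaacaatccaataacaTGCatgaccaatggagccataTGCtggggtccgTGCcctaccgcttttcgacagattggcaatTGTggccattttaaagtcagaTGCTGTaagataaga
Defb14: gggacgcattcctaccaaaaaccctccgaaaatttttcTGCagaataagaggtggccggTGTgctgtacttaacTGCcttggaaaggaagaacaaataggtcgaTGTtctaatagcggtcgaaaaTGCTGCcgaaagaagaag
The coding sequences of *Defb3* and *Defb4* (189 bases each) were 75.7% identical, and *Defb14* (201 bases) was 57.2% identical to *Defb3* and 52.9% identical to *Defb4*. No stretch of 50 bases of the *Defb3* or *Defb14* transcript was found in a transcript of another gene. Of the *Defb4* transcript, 5.68% of such stretches also occur in *Defb8*, which had no counts in any library.

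*Defb3* had the largest fold change of the members. In WT basal cells it reached 0.0347, 0, 0.193, 0.252 and 0.236 CPM in mice WT1 to WT5, and with cytokines 15.1, 34.0, 28.8, 27.1 and 37.4 CPM. In KO basal cells the lowest, median and highest values were 0, 0.0542 and 0.194 CPM, and with cytokines 11.6, 17.1 and 32.3 CPM. It was thus at or near 0 before treatment and at 11.6 CPM or more after it, with no overlap between the conditions in either genotype. The log2 fold change was 7.60 (SE 0.49, adjusted p = 3.65e-13) in WT, which ranked 5 of 16893 genes from the highest, and 7.85 (SE 0.41, adjusted p = 2.91e-15) in KO cells, rank 3. These correspond to a 194-fold rise in WT cells (95% CI 97.5 to 387) and a 231-fold rise in KO cells (95% CI 130 to 412). With 1 of 5 WT and 3 of 8 KO basal libraries at 0 counts, the size of this fold rests on few basal reads.

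*Defb4* rose less than *Defb3* in both genotypes. The WT basal values were 0.417, 0.889, 0.161, 0.189 and 0.709 CPM in mice WT1 to WT5, and those with cytokines were 2.54, 4.38, 3.22, 4.03 and 4.59 CPM. The lowest, median and highest KO values were 0.217, 0.400 and 1.78 CPM without and 0.814, 1.60 and 4.09 CPM with cytokines. The treated and basal libraries did not overlap in WT but did in KO cells, where the basal libraries of KO7 and KO8 (1.78 and 1.51 CPM) lay above 5 and 3 of the 8 treated ones. The log2 fold change was 3.01 (SE 0.54, adjusted p = 6.43e-05) in WT and 1.36 (SE 0.41, adjusted p = 0.0111) in KO cells. Expressed as a fold, *Defb4* rose 8.05-fold (95% CI 3.72 to 17.4) in WT and 2.56-fold (95% CI 1.44 to 4.58) in KO cells. Within single KO mice the ratio of treated to basal CPM spanned 1.11 to 7.52, against 4.93 to 21.4 in WT mice.

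*Defb14* had the highest basal level of the 3 defensins per kilobase of transcript and the smallest fold change in WT cells. It reached 3.38, 3.06, 3.19, 4.42 and 2.55 CPM in the WT basal and 12.4, 19.0, 19.2, 21.7 and 24.9 CPM in the WT treated libraries of WT1 to WT5. The KO values had a minimum of 1.45, a median of 3.75 and a maximum of 6.12 CPM without cytokines and 10.1, 14.7 and 18.5 CPM with them. All treated libraries stood above all basal ones in both genotypes. *Defb14* rose 5.82-fold (95% CI 4.03 to 8.40) in WT cells, on the log2 scale 2.54 (SE 0.26, adjusted p = 5.43e-09). In KO cells it rose 3.98-fold (95% CI 2.99 to 5.30), on the log2 scale 1.99 (SE 0.20, adjusted p = 4.02e-09).

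The 3 serum amyloid A genes are neighbours on chromosome 7 of GRCm39, *Saa3* at chr7:46361422-46365576 and *Saa1* at chr7:46389916-46392547 on the minus strand and *Saa2* at chr7:46401214-46403737 on the plus strand. *Saa1* and *Saa2* are near copies, so how well reads can tell them apart matters for their values. Their coding sequences of 366 bases differ at 18 positions (95.1% identity), whereas *Saa3* is 75.7% identical to *Saa1* and 74.7% to *Saa2*. The 90-base window with the most differences lies in the second coding exon, at chr7:46390729-46390818 on the minus strand for *Saa1* and at chr7:46402842-46402931 on the plus strand for *Saa2*. It is printed 5′ to 3′ on the coding strand, with the 7 bases that differ in capitals.
Saa1: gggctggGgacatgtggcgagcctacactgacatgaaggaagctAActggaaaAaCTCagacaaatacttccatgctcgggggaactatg
Saa2: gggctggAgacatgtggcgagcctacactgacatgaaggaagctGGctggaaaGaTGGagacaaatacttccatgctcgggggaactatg
Of stretches of 50 bases, 11.7% in the *Saa1* transcript and 12.8% in the *Saa2* transcript also occur in another serum amyloid A transcript, but no stretch of 150 bases, the length of 1 read, was shared. The split of counts between *Saa1* and *Saa2* is therefore less certain than their sum.

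*Saa1* was at most 0.946 CPM in every basal library and rose in both genotypes. The WT basal libraries of WT1 to WT5 had 0.243, 0.0395, 0.129, 0.283 and 0.614 CPM, and the treated ones 9.05, 13.2, 28.2, 12.6 and 15.1 CPM. In KO cells the lowest, median and highest values were 0.230, 0.559 and 0.946 CPM without and 10, 12.0 and 20.9 CPM with cytokines. WT3 was the highest treated WT library, and treated and basal libraries did not overlap in either genotype. The log2 fold change was 5.95 (SE 0.44, adjusted p = 6.70e-12) in WT, a 61.7-fold rise, and 4.58 (SE 0.31, adjusted p = 1.07e-12) in KO cells, a 23.9-fold rise.

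*Saa2* was scarce, with at most 34 counts in any library. The WT basal libraries of WT1 to WT5 held 0, 0, 2, 0 and 2 counts and the WT treated ones 26, 4, 6, 16 and 21 counts. In KO cells the counts ranged from 0 to 8 in basal libraries, 4 of which were at 0, and from 4 to 34 in treated ones. Treated libraries stood above basal ones in WT, while in KO cells the treated library of KO3, at 0.0867 CPM, lay below 3 basal libraries. *Saa2* rose by 3.91 on the log2 scale (SE 1.03, adjusted p = 0.00384) in WT and 2.68 (SE 0.69, adjusted p = 0.00301) in KO cells. The WT value of *Saa2* was 4.57 without WT3 and 3.41 without WT1. With the counts of *Saa1* and *Saa2* summed to 1 feature, the log2 fold change was 5.89 in WT and 4.47 in KO cells.

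*Saa3*, the serum amyloid A gene expressed mainly outside the liver, had the highest level of the 3 per kilobase of transcript after treatment. It reached 0.799, 0.0395, 0.258, 0.283 and 0.378 CPM in the basal and 31.6, 30.0, 99.8, 39.5 and 44.1 CPM in the treated libraries of WT1 to WT5. KO values had a minimum, median and maximum of 0.420, 0.692 and 2.04 CPM without and 33.8, 37.0 and 42 CPM with cytokines. WT3 was far above the other treated libraries, whereas the 8 treated KO libraries lay close together, with a coefficient of variation of 8.21% against 59.1% in treated WT cells. The log2 fold change was 7.10 (SE 0.43, adjusted p = 1.51e-13) in WT, rank 8 of 16893, and 5.55 (SE 0.31, adjusted p = 1.29e-14) in KO cells, rank 13. The WT value was 6.55 without WT3 and 7.78 without WT1.

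*Lcn2*, on the minus strand at chr2:32274645-32278264, had the highest level of the members after treatment per kilobase of its canonical transcript. WT basal libraries had 3.82, 4.07, 1.61, 3.62 and 4.44 CPM in WT1 to WT5, and treated ones 125, 234, 258, 215 and 259 CPM. In KO cells the lowest, median and highest values were 2.35, 3.37 and 5.22 CPM without and 137, 158 and 254 CPM with cytokines. No treated library came near a basal one, WT1 was the lowest treated WT library, and KO8 was the highest treated KO library. *Lcn2* rose 62.7-fold (95% CI 43.3 to 91.0) in WT, on the log2 scale 5.97 (SE 0.26, adjusted p = 1.07e-16), and 48.8-fold (95% CI 36.6 to 65.2) in KO cells, on the log2 scale 5.61 (SE 0.20, adjusted p = 1.15e-18). It ranked 12 of 16893 genes from the highest in both genotypes.

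*Slpi* was expressed in all basal libraries and rose in both genotypes. It lies on the minus strand at chr2:164195990-164231015, and 281 of its exon bases are also annotated to *Matn4* or *Mir7678* on the same strand, so reads there are uncertain. WT1 to WT5 had 16.2, 11.3, 10.5, 9.74 and 10.9 CPM in the basal and 119, 204, 151, 170 and 203 CPM in the treated libraries. Over the KO mice the lowest, median and highest values were 10.5, 13.7 and 16.4 CPM without and 109, 138 and 198 CPM with cytokines. WT1 was the highest basal and the lowest treated WT library, and the conditions did not overlap. *Slpi* rose 14.5-fold (95% CI 11.3 to 18.6) in WT and 10.9-fold (95% CI 8.94 to 13.2) in KO cells, on the log2 scale 3.86 (SE 0.18, adjusted p = 2.78e-16) and 3.44 (SE 0.14, adjusted p = 7.53e-18).

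*Pglyrp1*, on the plus strand at chr7:18605256-18624384, was a low-level gene that rose in both genotypes. WT1 to WT5 had 0.174, 0, 0.129, 0.157 and 0 CPM in the basal and 2.68, 1.69, 0.597, 1.34 and 0.795 CPM in the treated libraries. In KO cells the lowest, median and highest values were 0, 0.0961 and 0.217 CPM without and 1.22, 1.54 and 2.04 CPM with cytokines. Treated libraries stood above basal ones in both genotypes, and WT1, the lowest treated WT library for 6 of the 9 members, was the highest for *Pglyrp1*. The log2 fold change was 3.85 (SE 0.63, adjusted p = 1.43e-05) in WT and 3.97 (SE 0.50, adjusted p = 1.97e-07) in KO cells.

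*Camp*, the cathelicidin gene at chr9:109676442-109678685 on the minus strand, was not detected beyond a single count. That count lay in the treated library of WT4 (0.0217 CPM), and the other 25 libraries had 0. A count of 0 allows, at 3 counts over a group, up to 0.0109 CPM in WT basal, 0.00651 CPM in KO basal and 0.00713 CPM in KO cells with cytokines, limits that cover counting error only and take each count as 1 independent fragment. Of the members' values from 1 to 99 counts, 93.6% were even, and if both reads of a pair were counted these limits are too low. No fold change is given for *Camp*, because all groups are at or under this limit.

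**Figure D2:**
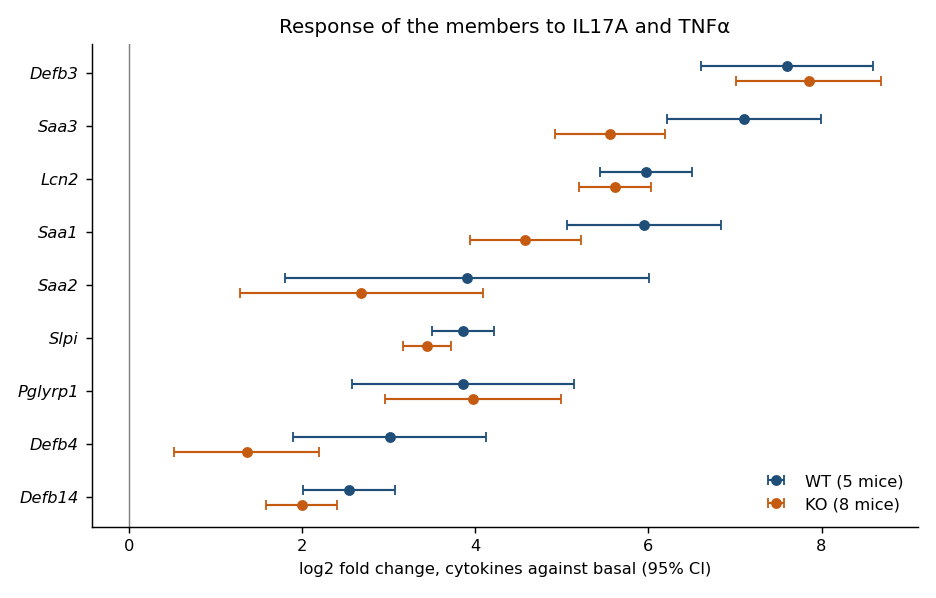
Fitted log2 fold change of each tested member between cytokine-treated and basal cells (x axis, with 95% CI as bars) in WT (blue, 5 mice) and KO cells (orange, 8 mice), ordered by the WT value. All 18 intervals lie above 0, from *Defb14* at 2.54 to *Defb3* at 7.60 in WT cells and from *Defb4* at 1.36 to *Defb3* at 7.85 in KO cells.

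Levels of different genes were compared per length of the canonical transcript, as CPM per kilobase. In WT basal cells *Defb14* (16.3 ± 3.37) and *Slpi* (13.4 ± 2.92, SD, n = 5) stood above *Lcn2* (3.84 ± 1.21), and the other members were at or below 1.04 CPM per kilobase. With cytokines the order in WT cells was *Lcn2* (238 ± 60.5), *Slpi* (194 ± 41.5), *Defb14* (95.2 ± 22.6), *Defb3* (89.5 ± 26.9), *Saa3* (48.7 ± 28.8), *Saa1* (20.6 ± 9.73), *Defb4* (8.27 ± 1.88), *Pglyrp1* (2.05 ± 1.19) and *Saa2* (0.389 ± 0.235). The ranges over the 5 mice overlapped between *Lcn2* and *Slpi*, *Defb14* and *Defb3*, *Defb3* and *Saa3*, and *Saa3* and *Saa1*. All genes were measured in the same libraries, so this overlap does not show equal levels. Differences between genes within mice were not tested. *Defb3* thus moved from 0.450 CPM per kilobase before treatment, where *Defb14* had 16.3, to about the level of *Defb14* after it. KO cells with cytokines had the same order, from *Lcn2* at 187 ± 41.2 to *Saa2* at 0.607 ± 0.224 CPM per kilobase (SD, n = 8). The order depends on the length used. Per kilobase of all annotated exons, *Lcn2* (83.1) stood below *Slpi* (144), *Defb14* (95.2) and *Defb3* (89.5) in treated WT cells, and *Saa1* (5.93) below *Defb4* (8.27). The annotated *Defb14* transcript of 204 bases has only 3 outside the coding sequence, and its level per length depends on that annotation.

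To ask whether loss of *Pla2g4d* changed these genes, KO cells were compared with WT cells in each condition. These comparisons use the same libraries as the cytokine comparisons above and are not independent of them. Without cytokines 0 of the 9 tested members passed the test, against 2.68% of all genes tested, a share that was 4.91% without WT1. *Saa1* had 2.22-fold higher CPM in KO cells (log2 difference 1.15, SE 0.44, 95% CI 0.25 to 2.05, adjusted p = 0.101) and *Saa3* 2.23-fold higher CPM (log2 difference 1.15, SE 0.45, 95% CI 0.23 to 2.08, adjusted p = 0.111). These 2 had an unadjusted p under 0.05, and in both the ranges of the genotypes overlapped. Among the marker lists, *Krt1* was lower and *Pecam1* higher in basal KO than in basal WT cells by the same test, and the part of this in the *Saa1* and *Saa3* values was not tested. The side of the threshold on which they fall depends on the tool: DESeq2 on the same genes gave adjusted p = 0.0517 for *Saa1* and 0.0411 for *Saa3*, and limma on the authors' log2 values gave 0.0411 and 0.0296. With only the 2 basal groups in the model the adjusted p was 0.291 for *Saa1* and 0.243 for *Saa3*. Over all alternatives it ranged from 0.0328 to 0.291 for *Saa1* and from 0.0190 to 0.261 for *Saa3*. Summed counts of *Saa1* and *Saa2* passed in the edgeR fit, with a log2 difference of 1.21 (adjusted p = 0.0752).

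For the other members the basal intervals bound what could have been missed. *Lcn2* differed by a log2 value of 0.01 (95% CI -0.47 to 0.49), *Slpi* by 0.18 (95% CI -0.13 to 0.49) and *Defb14* by 0.14 (95% CI -0.33 to 0.62). *Defb3* (-0.80, 95% CI -2.24 to 0.64), *Defb4* (0.60, 95% CI -0.41 to 1.60), *Pglyrp1* (0.02, 95% CI -1.28 to 1.31) and *Saa2* (1.87, 95% CI -0.25 to 3.99) had wider intervals at their lower counts. A 2-fold basal difference in either direction lies outside the intervals of *Lcn2*, *Slpi* and *Defb14*. The intervals of *Defb4* and *Saa2* include a 2-fold higher level in KO cells, that of *Defb3* a 2-fold lower one and that of *Pglyrp1* both.

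With cytokines 0 of the 9 tested members passed the genotype test, against 0.704% of all genes tested. That share rests on few mice: leaving out each in turn, it ranged from 0.237% without WT3 to 3.31% without WT1. *Defb4* showed the largest difference, with 1.81 ± 1.0 CPM (SD, n = 8) in KO and 3.75 ± 0.854 CPM (SD, n = 5) in WT cells, a log2 difference of -1.05 (SE 0.43, 95% CI -1.95 to -0.16, adjusted p = 0.232). It was the only tested member with an unadjusted p under 0.05 in this comparison. Of the 8 treated KO libraries, only KO8 (4.09 CPM) reached into the WT range of 2.54 to 4.59 CPM. Without KO8 the log2 difference was -1.33 (adjusted p = 0.0656), and with only these 2 groups in the model it was -1.05 (adjusted p = 0.0623). The adjusted p ranged from 0.0623 to 0.417 over all alternatives. The keratinocyte markers *Krt1* and *Krt10* were lower in treated KO than in treated WT cells by the same test. The part of this in the *Defb4* value was not tested.

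The other members with cytokines lay on both sides of 0. *Lcn2* differed by -0.35 (95% CI -0.72 to 0.02), *Defb3* by -0.55 (95% CI -1.12 to 0.03), *Defb14* by -0.40 (95% CI -0.84 to 0.04) and *Slpi* by -0.24 (95% CI -0.52 to 0.05) on the log2 scale. *Saa1* (-0.22, 95% CI -0.80 to 0.36) and *Saa3* (-0.40, 95% CI -0.94 to 0.15) changed sign without the single mouse WT3, to 0.11 and 0.04. *Saa2* (0.64, 95% CI -0.80 to 2.09) and *Pglyrp1* (0.14, 95% CI -0.83 to 1.1) had wide intervals. In total 7 of the 9 had lower fitted levels in KO cells, where 52.0% of all genes tested did, and the ranges of the genotypes overlapped in all 9.

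**Figure D3:**
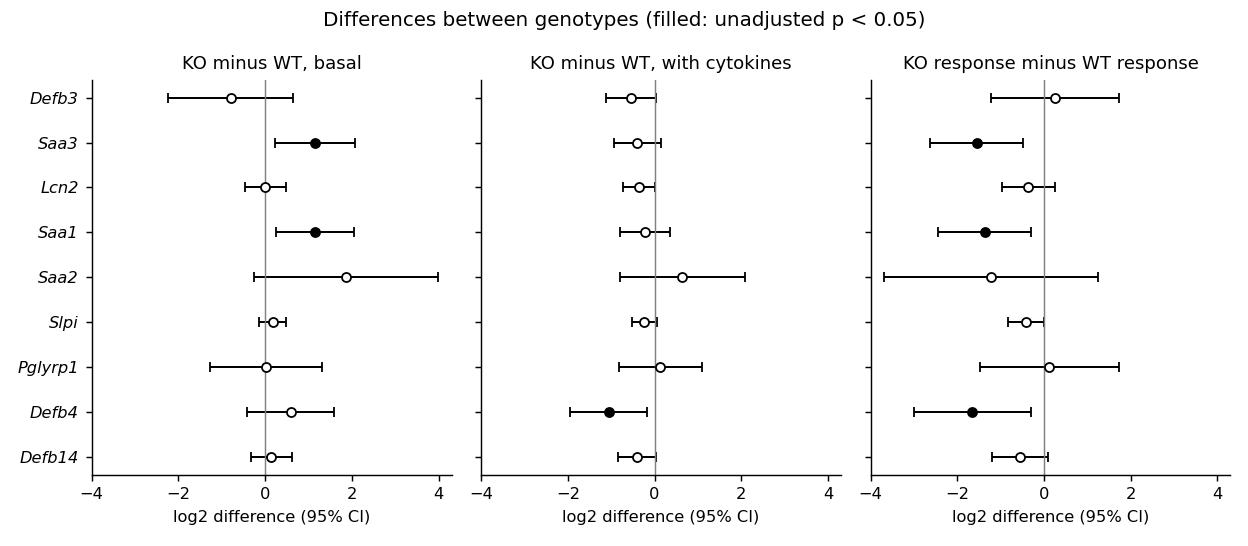
Fitted log2 differences of the tested members with 95% CI (x axes): KO minus WT in basal cells (left), KO minus WT with cytokines (middle) and the KO response minus the WT response (right), filled where the unadjusted p was under 0.05. No member passed the adjusted threshold in any panel, and the filled points are *Saa1* and *Saa3* on the left, *Defb4* in the middle and *Saa1*, *Saa3* and *Defb4* on the right.

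Whether the response itself differed between genotypes was tested as an interaction, the KO response minus the WT response. No member passed (0 of 9), against 0.219% of all genes tested, a share that ranged from 0.106% without KO5 to 0.54% without WT1. *Saa3* had an interaction of -1.55 (SE 0.52, 95% CI -2.62 to -0.48, adjusted p = 0.267), *Defb4* of -1.65 (SE 0.66, 95% CI -3.0 to -0.30, adjusted p = 0.391) and *Saa1* of -1.37 (SE 0.52, 95% CI -2.44 to -0.30, adjusted p = 0.353). These 3 had an unadjusted p under 0.05. *Saa1* and *Saa3* had higher fitted basal levels in KO cells, which did not pass the test, and treated levels within the WT range. *Defb4* had a higher mean in basal KO cells (0.707 against 0.473 CPM, log2 difference 0.60) and a lower one in treated KO cells (log2 difference -1.05). Neither *Defb4* difference passed the test.

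No member came over the threshold when the mouse entered the model. Fitted with a term for each mouse (replicate block), the interaction was -1.62 for *Defb4* (adjusted p = 0.102), -1.44 for *Saa3* (adjusted p = 0.145) and -1.29 for *Saa1* (adjusted p = 0.184), while 0.474% of all genes tested passed. Leaving out WT1 brought *Saa3* (-2.23, adjusted p = 0.0457) and *Slpi* (-0.66, adjusted p = 0.0804) over it. Leaving out WT3 moved the interaction towards 0, to -1.01 for *Saa3* (adjusted p = 0.586) and -0.85 for *Saa1* (adjusted p = 0.716). Over all alternatives the adjusted p of the interaction ranged from 0.0457 to 0.586 for *Saa3* and from 0.0804 to 0.874 for *Slpi*. WT1 had the highest basal value of both genes among the WT libraries, and the second-lowest treated value of *Saa3* and the lowest of *Slpi*.

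Some mice stood high or low for many members at once. Among the 8 treated KO libraries KO8 was the highest for 7 of the 9 tested members, and KO2 was the lowest for 4. Among the 5 treated WT libraries WT5 was the highest for 5 members and WT1 the lowest for 6. Among the basal libraries no mouse was the highest of its group for more than 3 members, and KO4 was the lowest of its group for 4. The libraries were ranked on the members only. Whether other genes of these libraries stood equally high or low was not tested. For *Defb4* and *Lcn2* KO8 stood apart from the other treated KO libraries, at 4.09 against at most 1.97 CPM and at 254 against at most 192 CPM.

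The promoters of the members were compared because their transcripts rose together. RefSeq promoter sequences matched 8 of the 10 members by symbol, and the table used here has no entry for *Defb4* and *Defb14*. In the 250 bases before each start site, the form TTGCNNAA, recognised by C/EBP factors, was searched on both strands together with the NF-κB consensus. TTGCNNAA occurred in 6 of the 8 (*Lcn2*, *Defb3*, *Saa1*, *Saa2*, *Saa3* and *Slpi*), against 9.57% of 32841 promoters of the same length. *Saa1* and *Saa2* are near copies, so their matches are not independent of each other. The NF-κB consensus occurred in 1 of the 8 (*Pglyrp1*), against 3.90%. At *Lcn2* and *Saa3* the 54 bases around the match lie wholly in annotated exons. The surroundings of TTGCNNAA are shown for the 4 members in which they lie outside such exons, with the match in capitals. They span chr8:19343175-19343228 (plus strand) at *Defb3*, chr7:46392556-46392609 (minus strand) at *Saa1*, chr7:46401051-46401104 (plus strand) at *Saa2* and chr2:164198638-164198677 (minus strand) at *Slpi*, matched from RefSeq to GRCm39.
Defb3: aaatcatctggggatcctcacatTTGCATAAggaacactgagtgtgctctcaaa
Saa1: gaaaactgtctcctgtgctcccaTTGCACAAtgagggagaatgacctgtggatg
Saa2: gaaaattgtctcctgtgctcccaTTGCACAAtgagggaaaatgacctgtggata
Slpi: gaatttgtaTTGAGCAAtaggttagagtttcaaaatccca
The match began 182 bases before the start in *Saa1* and 183 before it in *Saa2*, and the *Slpi* match is read on the opposite strand. The *Slpi* window lies before the RefSeq start but within the span of *Slpi* in the GENCODE annotation. A match of letters is a description, not evidence of binding.

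To place the members among all tested genes, the genes with the nearest profile were found by the root mean square difference of centred log2 CPM over the 26 libraries. Nearest to *Lcn2* were *S100a9* (0.34), *S100a8* (0.40) and *Sprr2e* (0.44), against a median distance from *Lcn2* of 2.92 over all genes. *Saa1* and *Saa3* were each among the 3 nearest genes of the other (0.82), and *Lcn2* was among the 3 nearest of both. Nearest to *Defb14* were *Cnfn* (0.31), *Styk1* (0.39) and *Hcar2* (0.40), and nearest to *Slpi* were *Sprr2j-ps* (0.32), *Lama4* (0.35) and *Gsap* (0.36). *Defb4* was nearest to *Gjb6* (0.64), *Acp7* (0.66) and *Cnfn* (0.67), and *Pglyrp1* to *Steap4* (0.95), *Nos2* (1.03) and *Slpi* (1.04). *Defb3* was nearest to *Sprr2f* (1.27), *U90926* (1.28) and *Lce3b* (1.28), and *Saa2* to *Glra3* (1.02), *Mmp9* (1.13) and *Snai3* (1.14). The median distance over all genes differed between members. It was 1.25 for *Defb14*, 1.47 for *Defb4*, 1.84 for *Slpi* and 1.90 for *Saa2*. For *Pglyrp1* it was 2.34, for *Saa1* 2.74, for *Saa3* 3.28 and for *Defb3* 4.24. The nearest genes of the scarce *Saa2* were thus not far below its median.

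Other genes of the same functions were counted from lists. Over all genes tested, 8.65% rose and 5.26% fell with cytokines in WT cells, and 6.33% rose and 4.55% fell in KO cells. Of 30 other antimicrobial protein genes 17 were tested, and with cytokines 11 rose and 5 fell in WT and 11 rose and 4 fell in KO cells (medians of 1.38 and 1.27 on the log2 scale). The largest rises were those of *S100a7a* (log2 fold change 6.20 in WT and 5.64 in KO cells), *S100a9* (5.94 and 5.40) and *S100a8* (5.63 and 5.21), calcium-binding proteins that withhold metal ions from microbes. The genes that fell in WT cells, named after their values were seen, were *Defb1*, *Rnase4*, *Cxcl14*, *Wfdc5* and *Ang*. *Defb1*, a β-defensin known for its constitutive expression in epithelia, fell from 290.2 ± 37.3 to 103 ± 17.6 CPM (SD, n = 5) in WT cells, opposite to *Defb3*, *Defb4* and *Defb14*. Between genotypes 1 of the 17 tested genes passed in each condition. Over all genes tested, 2.68% passed without and 0.704% with cytokines. A single gene is a description and no result about the list. *Pglyrp4*, a peptidoglycan recognition protein, was lower in basal KO cells by a log2 difference of -0.61 (adjusted p = 0.0682). *Chil1*, a chitinase-like protein, was lower in treated KO cells by -0.82 (adjusted p = 0.0675).

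Of 20 other acute-phase protein genes 8 were tested, and the same 4 rose with cytokines in both genotypes: *Steap4*, *C3*, *Serpina3n* and *Cp*. The medians of the 8 were 1.58 and 1.27. *Steap4*, a metalloreductase, rose by a log2 fold change of 3.71 in WT and 3.51 in KO cells, *C3*, the central complement component, by 3.46 and 2.92, *Serpina3n*, a serine protease inhibitor, by 2.94 and 2.31, and *Cp*, the copper-binding ceruloplasmin, by 2.06 and 2.58. *Serpina3n* (log2 difference 1.57, adjusted p = 0.00208) and *C3* (log2 difference 1.33, adjusted p = 0.0272) were higher in basal KO than in basal WT cells. In these 2 genes the basal difference passed the threshold that *Saa1* and *Saa3* just missed, where 2.68% of all genes tested passed. The other 6 did not pass, and the median basal log2 difference of the 8 was -0.057. None of the 8 passed the genotype test with cytokines, against 0.704% of all genes tested. *Serpina3n* had a log2 difference of 0.94 (adjusted p = 0.107) there.

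Of 19 genes for receptors and partners of the members 11 were tested, and 3 rose and 1 fell in WT, while 3 rose and 3 fell in KO cells, with medians of 0.27 and 0.12. *Mmp9*, whose protein forms a complex with lipocalin 2, rose by a log2 fold change of 3.57 in WT and 2.87 in KO cells, *Plscr1*, a phospholipid scramblase that binds antileukoproteinase, by 2.81 and 2.33, and *Tlr2*, a receptor for bacterial lipoproteins, by 1.88 and 1.23. *Klk5*, a kallikrein that processes cathelicidin, fell by 1.11 on the log2 scale in WT and by 1.43 in KO cells. None of the 11 passed the genotype test in either condition, against 2.68% of all genes tested without and 0.704% with cytokines.

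Of the regulators of the IL-17 response 14 of 14 were tested, and 5 rose in both genotypes while none fell, with medians of 0.49 and 0.32. *Tnfrsf1b*, a TNF receptor, rose by a log2 fold change of 2.98 in WT and 3.38 in KO cells, *Zc3h12a*, an RNase that limits inflammatory transcripts, by 2.59 and 2.21, and *Tnfaip3*, an inhibitor of NF-κB signalling, by 1.83 and 1.19. *Cebpd*, a C/EBP factor, rose by 1.36 in WT and 1.25 in KO cells. *Tnfaip3* was the only gene of the 4 lists to pass the interaction test, with a value of -0.64 (adjusted p = 0.00201), where 0.219% of all genes tested passed. It had 32.9 ± 1.78 CPM in WT and 49.0 ± 4.62 CPM in KO basal cells, and 117 ± 13.3 CPM in WT (SD, n = 5) and 111 ± 8.79 CPM in KO cells (SD, n = 8) with cytokines.

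**Figure D4:**
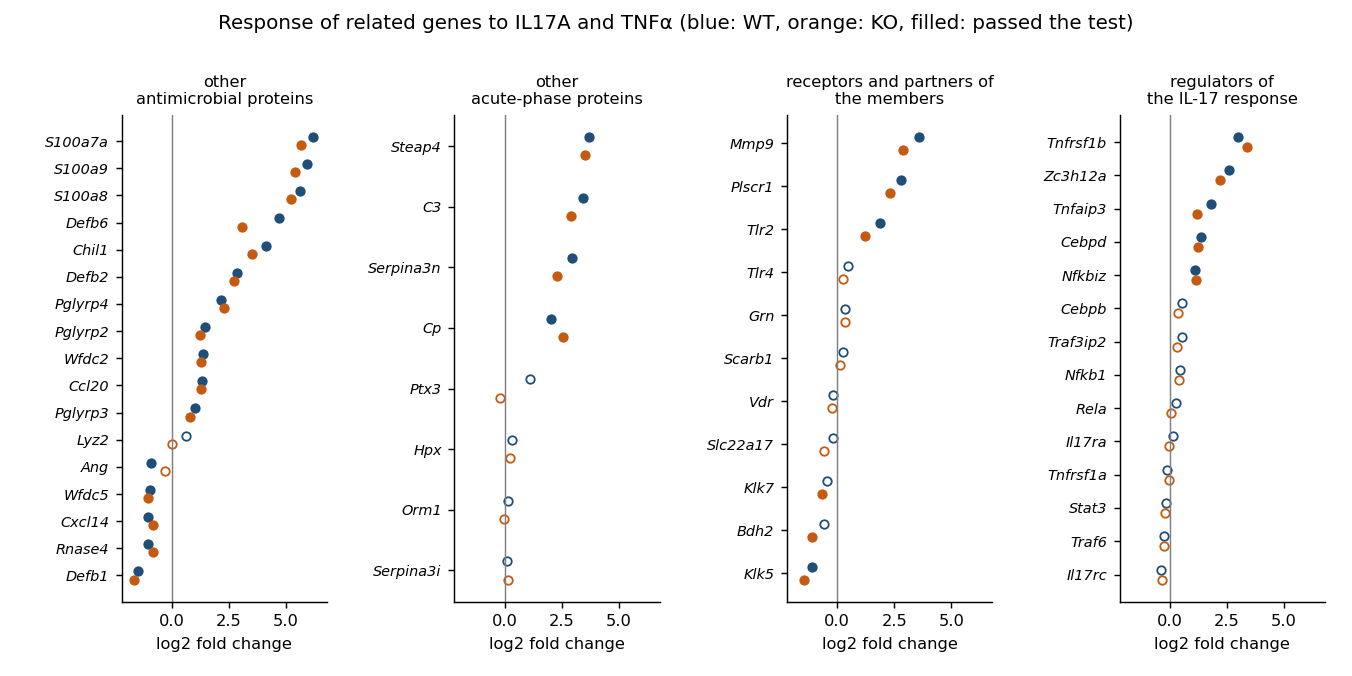
Log2 fold change with cytokines (x axes) of the tested genes of 4 lists, in WT (blue) and KO cells (orange), filled where the gene passed the test. Most antimicrobial and acute-phase genes that responded rose, with *S100a7a* at 6.20 highest in WT cells, and *Defb1* fell in both genotypes.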

How the data were processed

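The authors aligned paired 150-base reads and deposited raw counts per gene symbol, with STAR 2.7.10b, featureCounts 2.0.6 and the mm39 build named in the submitters' processing notes and GENCODE vM31 as annotation. Whether counting used strand is not given in the sources used here. Low counts were mostly even (82.0% of values from 1 to 9), so a count may not be 1 independent fragment. A second deposited table holds log2 values, equal to log2(count / size factor + 1) within 0.01 for all but 50 of 56738 symbols and for all members.

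The counts went into edgeR 4.0.16 under R 4.3.3 (quasi-likelihood test, TMM, Benjamini-Hochberg) in 1 model of 4 groups, on genes with a mean normalized count over 10. Fitted fold changes used the default prior count of edgeR. A prior count of 1 was used for the log2 CPM of the nearest profiles and of the correlation within mice. Calls needed a fold change over 1.5 at an adjusted p under 0.1. The scripts were tested on simulated data. Replicates are mice, and sex, litter and batch of each mouse are not given in the labels. Basal and treated libraries of the same number came from the same mouse. The correlation of their deviations from the group means ranged from 0.000509 to 0.254 over 13 mice. Totals of 42072745 to 78102858 counts per library leave the spread between mice as the main error for all but the scarce members. No 2 libraries of a group agreed within sampling noise.

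Alternatives were DESeq2 1.42.0 (size factors and test), limma 3.58.1 on the log2 values, other filters and thresholds, only the groups compared, the mouse as block, *Saa1* and *Saa2* summed, and leaving out each mouse. Positions come from GRCm39 with GENCODE vM39, promoters from RefSeq (GRCm38.p6), located in GRCm39 by sequence, and identities from alignments with Biopython 1.88. All members were named, with up to 3 called genes of each list per contrast by size of change and the 3 nearest profiles. Members, lists and tests were chosen with earlier results of these data known.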

Additional observations from a re-analysis of the deposited data

Results flagged for a closer look

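In 6 of 37 groups of libraries examined, 1 library lay far from the others by Dixon's criterion. Its rate of about 1 in 20 groups by chance holds for normally distributed values. CPM with values at 0 need not follow that distribution, so no excess can be read from these counts. With cytokines, KO8 had 254 CPM of *Lcn2* (next 192) and 4.09 CPM of *Defb4* (next 1.97). WT3 with cytokines had 99.8 CPM of *Saa3* (next 44.1). Basal KO6 had 2.04 CPM of *Saa3* (next 1.01), and basal WT1 had 16.2 CPM of *Slpi* (next 11.3). The single *Camp* count, in WT4 with cytokines, stood at 0.0217 CPM against 0 in the other WT libraries. A single count among zeros always meets the criterion.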

How the results depend on the processing

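All 9 tested members rose with cytokines in both genotypes under the alternatives run, except that 8 were counted without KO4, where *Saa2* fell below the filter, and with *Saa1* and *Saa2* summed, which leaves 1 feature fewer. The count of members differing between genotypes in basal cells, 0, became 2 with the DESeq2 test, where 2.79% of all genes tested passed. It became 2 with limma on the log2 values (3.1% of all genes) and 1 with *Saa1* and *Saa2* summed (2.69%). When each mouse was left out, it ranged from 0 to 2. *Saa3* passed without WT1 (4.91% of all genes), *Saa1* without WT5 (2.06%), KO1 (2.1%) or KO3 (2.35%), and both without KO4 (3.11%). With cytokines the count went from 0 to 1 with only the groups compared, where 1.07% of all genes tested passed. On leaving out mice it ranged from 0 to 1, as *Defb4* passed without KO8, where 1.71% of all genes did. The interaction count, 0, ranged from 0 to 2 (*Saa3* and *Slpi* without WT1, where 0.54% of all genes passed). With the mouse as replicate block the counts were 9 in WT, 9 in KO and 0 for the interaction, and the block changed no member's call. Of all genes tested, 14.6%, 11.2% and 0.474% passed in these fits. The *Pglyrp1* interaction reversed to -0.028 with limma. Signs also turned on leaving out mice in these log2 values: *Lcn2* basal genotype difference -0.19 to 0.10, *Pglyrp1* basal -0.29 to 0.33, *Saa1* with cytokines -0.36 to 0.11, *Saa3* with cytokines -0.52 to 0.042, *Pglyrp1* with cytokines -0.055 to 0.51, *Defb3* interaction -0.11 to 0.66 and *Pglyrp1* interaction -0.20 to 0.49. The cause was not tested. Basal counts of at most 16 limit the basal comparisons of *Defb3*, *Saa2* and *Pglyrp1*.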
